A study of Sorghum bicolor with 8 samples.

Results

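Described here are 9 sorghum genes that move sucrose across membranes or cleave it, taken by identifier out of the 34129 genes in the files. They are 6 sucrose transporters, named SUT1 to SUT6, 2 sucrose synthases and 1 vacuolar invertase. The names were attached to the identifiers when the members were chosen. The files hold identifiers only, so the names could not be checked against a description. All 9 loci were found in every library's file, and none overlapped another locus of the files.

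RNA came from wild-type sorghum (Sorghum bicolor) of the line Hiro-1, and the labels give 4 groups of 2 biological replicates each. Callus, an unorganised mass of plant cells kept in culture, was here started from immature embryos of 1 to 2 mm, taken 13 to 15 days after flowering. Callus I, Callus II and Callus III were separated once the embryos had spent 3 weeks at 25 °C without light on callus induction medium, and were then grown apart for 20 more days on fresh medium. Leaf libraries came from leaves regenerated from Callus II on differentiation medium, lit at 2000 lx for 16 h and dark for 8 h of each day. All groups share the genotype and the explant. Leaf differs from callus in tissue, medium and light at once, and these cannot be told apart. The series concerns callus types with different regeneration capacities, which the labels do not rank. Whether these biological replicates came from separate cultures is not stated. The p-values therefore measure the spread between these libraries, which may not be the spread between cultures.

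Sucrose is the form in which plants carry carbon from leaves to growing tissues. Sucrose transporters (SUT) take it up together with protons, and in maize the transporter called SUT1 loads sucrose into the phloem of leaves. Inside the cell, sucrose synthase splits sucrose with UDP into UDP-glucose and fructose, a reversible reaction that feeds cell wall and starch synthesis. Vacuolar invertase instead hydrolyses sucrose to glucose and fructose in the acid vacuole, an activity associated with hexose storage and cell expansion in growing organs.

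Levels are in FPKM, the fragments counted per kilobase of a transcript relative to all fragments of the library, a scale per length on which genes can be set beside each other. Differences are of log2(FPKM + 1), with the standard error (SE) from limma over 23166 genes tested, and called means an adjusted p (Benjamini-Hochberg) under 0.05. Adding 1 makes differences between low values look smaller than they are. Of the 9 members, 8 had at least 1 FPKM in at least 2 libraries and were tested, and SUT3 was not. With no read totals, the absolute depth of the libraries is unknown. Whole-fragment steps among values under 0.2 FPKM put the callus libraries at 0.967 to 1.076 times the depth of Callus I replicate 1, and Leaf at 1.268 and 1.62 times. These steps held 18.4% to 20.4% of the low pairs in callus and 9.9% and 11.2% in Leaf, so the Leaf estimates are the weaker ones. The median difference of all tested genes was not at 0, so it is given here for reference. Relative to Callus I it was 0.18 for Callus II, -0.031 for Callus III and 0.107 for Leaf. Relative to Callus II it was -0.33 in Callus III and -0.109 in Leaf, and relative to Callus III it was 0.131 in Leaf.

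SUT1 (Sobic.001G488700.v3.2, chromosome 1, 75891908 to 75897861) was an abundant transcript of Callus III and Leaf and close to absent from Callus I and Callus II. Callus III had 163.8 and 122.2 FPKM of it and Leaf 110.7 and 116.2 FPKM, against 1.06 and 0.172 FPKM in Callus II, and 0.466 and 0.0364 FPKM in Callus I. Every Callus III and Leaf library lay far above every Callus I and Callus II library. In Callus III, 98.5% and 97.9% of all genes had a lower FPKM, and in Callus I 40.1% and 30.1% did.

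In Callus III, SUT1 was higher than in Callus I by 6.85 ± 0.30 on the log2(FPKM + 1) scale (SE, n = 2 per group; limma adjusted p = 3.98e-06). It was higher than in Callus II by 6.52 ± 0.30 (limma adjusted p = 1.19e-05). Leaf exceeded the Callus II it had grown from by 6.20 ± 0.30 (limma adjusted p = 3.62e-06) and Callus I by 6.54 ± 0.30 (limma adjusted p = 2.1e-06). In bulk RNA, fewer cells that express a gene and less of its RNA per cell cannot be told apart.

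Within the pair of tissues rich in SUT1, and within the pair with little of it, the difference did not pass the test. Leaf minus Callus III was -0.32, with a 95% interval from -1.03 to 0.40 (limma adjusted p = 0.392). Callus II minus Callus I was 0.33, from -0.38 to 1.05 (limma adjusted p = 0.368), and the 2 groups overlapped. SUT1 had passed the filter on low values through Callus III, Leaf and 1 Callus II library.

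SUT6 (Sobic.007G214500.v3.2, chromosome 7, 64300794 to 64303945) had the reverse distribution at a lower level. Callus I had 7.44 and 7.97 FPKM of it, Callus II 5.20 and 6.28 FPKM, Leaf 0.289 and 0.415 FPKM, and Callus III 0.1003 and 0.409 FPKM. The tissues with SUT1 were thus the ones in which this transporter was under 0.5 FPKM.

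SUT6 was lower in Callus III, at -2.81 ± 0.17 against Callus I and -2.43 ± 0.17 against Callus II (SE; limma adjusted p = 1.6e-05 and 7.39e-05). In Leaf it was -2.31 ± 0.17 against Callus II and -2.69 ± 0.17 against Callus I (limma adjusted p = 2.53e-05 and 9.99e-06). With a pseudocount of 0.1 FPKM these 4 differences were -4.61, -4.19, -3.70 and -4.12. SUT6 had passed the filter on low values through Callus I and Callus II alone, so these tests are not independent of that filter. Leaf and Callus III overlapped, with a difference of 0.12 and an interval from -0.29 to 0.53 (limma adjusted p = 0.586). Callus II minus Callus I was -0.37 with an interval from -0.79 to 0.04 (limma adjusted p = 0.0981), and with median-ratio scaling of the libraries it became -0.66 (limma adjusted p = 0.0128).

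**Figure D1:**
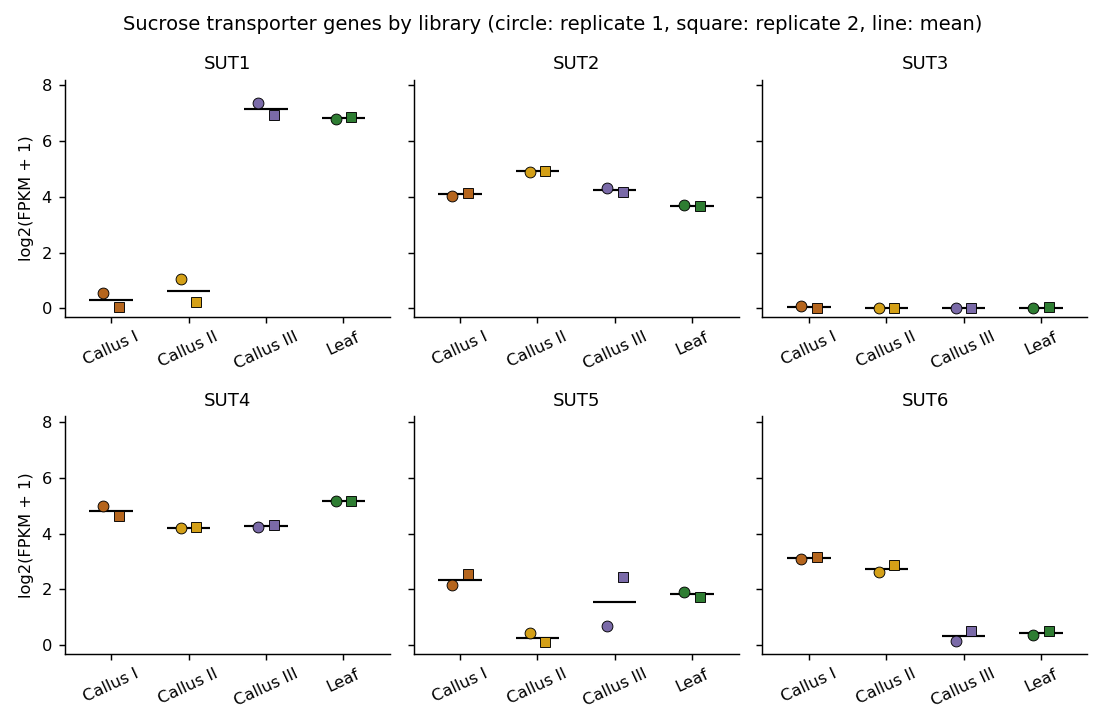
Level of each of the 6 sucrose transporter genes, as log2(FPKM + 1), in the 8 libraries (circles replicate 1, squares replicate 2, lines the mean of 2). SUT1 is high in Callus III and Leaf, SUT6 in Callus I and Callus II, and SUT3 lies at or near 0 in all libraries.

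SUT2 and SUT4 were the transporters found at moderate levels in every tissue. SUT2 (Sobic.004G353600.v3.2, chromosome 4, 68169079 to 68173814) ran from 11.6 FPKM in a Leaf library to 29.6 FPKM in a Callus II library. SUT4 (Sobic.008G193300.v3.2, chromosome 8, 62665983 to 62671469) ran from 17.5 FPKM in Callus II to 35.1 FPKM in Leaf. Both moved by less than SUT1 and SUT6, and their replicates lay within a factor of 1.295.

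SUT2 peaked in Callus II, at 28.5 and 29.6 FPKM, followed by 19.1 and 16.9 FPKM in Callus III, 15.3 and 16.7 FPKM in Callus I, and 12.1 and 11.6 FPKM in Leaf. No 2 groups overlapped. Callus II exceeded Callus I by 0.82 ± 0.11 (SE; limma adjusted p = 0.00059; 0.50 with median-ratio scaling), and Leaf was -1.23 ± 0.11 against Callus II (limma adjusted p = 6.16e-05). Callus III minus Callus II was -0.66 ± 0.11 (limma adjusted p = 0.00244), but -0.22 with median-ratio scaling (limma adjusted p = 0.23) and -0.37 with equal sums of FPKM outside the 100 highest genes, a comparison in which the median gene was itself at -0.33. Between Callus III and Callus I the difference was 0.16, from -0.10 to 0.42 (limma adjusted p = 0.255). With equal sums it was 0.42 (limma adjusted p = 0.0189). Leaf was lower than Callus III by -0.56 ± 0.11 (limma adjusted p = 0.00356) and than Callus I by -0.40 ± 0.11 (limma adjusted p = 0.0137). Without Leaf replicate 2 the last of these was -0.38 (limma adjusted p = 0.0603).

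SUT4 was highest in Leaf, at 35.1 and 34.8 FPKM, then in Callus I at 31.0 and 24.0 FPKM, in Callus III at 17.9 and 18.9 FPKM, and in Callus II at 17.5 and 17.6 FPKM. These groups did not overlap either, although Callus II and Callus III nearly touched. Leaf rose above Callus II by 0.95 ± 0.13 and above Callus III by 0.89 ± 0.13 (SE; limma adjusted p = 0.000562 and 0.000958). Leaf minus Callus I was 0.35 ± 0.13 (limma adjusted p = 0.0516), just short of a call, and it depended on the Callus I library, at 0.53 without replicate 1 (limma adjusted p = 0.00443) and 0.17 without replicate 2 (limma adjusted p = 0.164). With equal sums it was 0.43 (limma adjusted p = 0.0148).

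In SUT4, Callus II was at -0.61 ± 0.13 against Callus I (SE; limma adjusted p = 0.00593), and at -0.93 with median-ratio scaling. Callus III was at -0.55 ± 0.13 against Callus I (limma adjusted p = 0.0105). The call for Callus III was lost with equal sums, at -0.29 (limma adjusted p = 0.0744), and without Callus III replicate 1, at -0.51. It was also lost with only those 2 groups in the fit, at the same -0.55 (limma adjusted p = 0.0673). The difference of Callus III from Callus II was 0.062, from -0.26 to 0.38 (limma adjusted p = 0.734). With median-ratio scaling it was 0.49 (limma adjusted p = 0.019), and with equal sums 0.35 (limma adjusted p = 0.0486).

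SUT5 (Sobic.004G190500.v3.2, chromosome 4, 54229192 to 54232507) was a low transcript throughout, and 1 callus type was split. Callus I had 3.48 and 4.80 FPKM, Leaf 2.75 and 2.31 FPKM, and Callus II 0.343 and 0.0885 FPKM. The Callus III libraries stood at 0.605 and 4.41 FPKM, a 7.29-fold gap that spans the Leaf values and most of the range of Callus I. Callus II was lower than Callus I by -2.07 ± 0.51 (SE; limma adjusted p = 0.00961), and Leaf was higher than Callus II by 1.54 ± 0.51 (limma adjusted p = 0.0289). With a pseudocount of 0.1 FPKM these were -3.86 and 3.18. The first call was lost without Callus I replicate 2, at -1.89, or Callus II replicate 2, at -1.92. The second was lost when any one of its own 4 libraries was left out, although the difference stayed between 1.39 and 1.69.

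What Callus III showed for SUT5 depended on the library. Callus III minus Callus I was -0.79, from -1.997 to 0.42 (limma adjusted p = 0.221). It was 0.087 without Callus III replicate 1 (limma adjusted p = 0.783) and -1.67 without replicate 2 (limma adjusted p = 0.00256). Relative to Callus II, Callus III was at 1.29 (limma adjusted p = 0.0665), 2.16 without Callus III replicate 1 (limma adjusted p = 0.00206) and 0.41 without replicate 2. With a pseudocount of 0.1 FPKM it was 2.63 (limma adjusted p = 0.0342). Leaf minus Callus III was 0.26 (limma adjusted p = 0.688), and it turned to -0.62 without Callus III replicate 1 and to 1.13 without replicate 2 (limma adjusted p = 0.0673 and 0.00876). Leaf minus Callus I was -0.53, from -1.74 to 0.68 (limma adjusted p = 0.381). Of the alternatives run, it was called without Callus III replicate 1 and without replicate 2. Both leave the difference at -0.53 and change only the spread estimated over all groups.

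SUT3 (Sobic.001G254000.v3.2, chromosome 1, 28196913 to 28200621) was listed at 0 in 6 libraries. The others were Callus I replicate 1 at 0.0720 FPKM and Leaf replicate 2 at 0.0443 FPKM. No value exceeded 0.0720 FPKM in any tissue. A listed 0 may stand for a failed estimate, so no fold is given.

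Summed over the 6 genes, transporter FPKM came to 201.5 and 162.8 in the Callus III libraries and 161.0 and 165.4 in Leaf. It came to 57.8 and 53.5 in the Callus I libraries and 52.6 and 53.8 in those of Callus II. The callus types I and II thus had nearly equal sums from a different make-up. SUT4 held 49.2% ± 6.3 of the sum in Callus I and SUT2 28.9% ± 3.4 (SD, n = 2). In Callus II the order was turned, with 54.7% ± 0.6 from SUT2 and 33.0% ± 0.3 from SUT4. SUT6 contributed 13.9% ± 1.4 in Callus I and 10.8% ± 1.3 in Callus II.

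In Callus III and Leaf a single gene made up most of the sum. SUT1 held 78.2% ± 4.4 in Callus III and 69.5% ± 1.1 in Leaf (SD, n = 2). Its share was 1.17% ± 1.2 in Callus II and 0.44% ± 0.52 in Callus I. Next came SUT4 in Leaf, with 21.4% ± 0.6, while SUT2 and SUT4 shared the second place in Callus III with 9.94% ± 0.64 and 10.2% ± 1.9. A share within a library does not change with the scaling of the library. These shares are a description of transcript levels and were not tested.

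**Figure D2:**
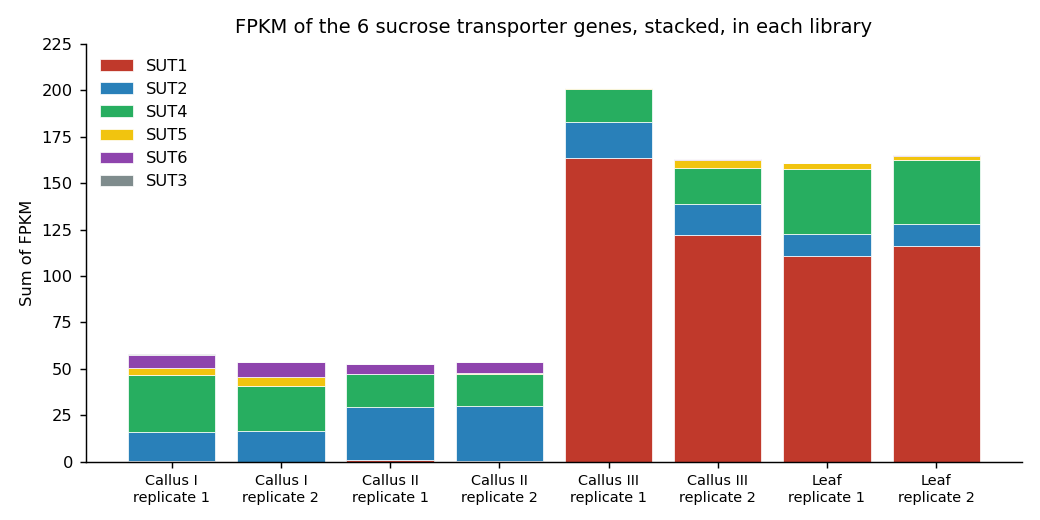
FPKM of the 6 sucrose transporter genes stacked in each of the 8 libraries, so that the bar height is their sum. The bars of Callus I and Callus II end between 52.6 and 57.8 and consist mainly of SUT2 and SUT4, and those of Callus III and Leaf end between 161.0 and 201.5 and consist mainly of SUT1.

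The sucrose synthases were among the most abundant transcripts of every tissue, and they differed in where they were lowest. The gene on chromosome 1 (Sobic.001G344500.v3.2, 63320872 to 63327577) was highest in Callus II, at 829 and 730 FPKM. Callus III had 312.4 and 418.8 FPKM, Leaf 330.3 and 367.6 FPKM, and Callus I 176.5 and 104.6 FPKM. The gene on chromosome 10 (Sobic.010G072300.v3.2, 5859074 to 5867276) was lowest in Callus III, at 78.0 and 126.0 FPKM. Leaf had 256.0 and 245.9 FPKM, Callus I 400.1 and 440.3 FPKM, and Callus II 592 and 468 FPKM. Callus II was the highest group for both, and the lowest was Callus I for one and Callus III for the other. At least 96.7% of all genes had a lower FPKM than either synthase in each library.

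For the chromosome 1 synthase, Callus II was above Callus I by 2.51 ± 0.27 (SE; limma adjusted p = 0.000195), a ratio of mean FPKM of 5.54. Callus III was higher than Callus I by 1.41 ± 0.27 and Leaf by 1.35 ± 0.27 (limma adjusted p = 0.00337 and 0.00305). Leaf was lower than Callus II by -1.16 ± 0.27 (limma adjusted p = 0.0064), and this was -1.08 without Leaf replicate 1 (limma adjusted p = 0.0627). Callus III was lower than Callus II by -1.10 ± 0.27 (limma adjusted p = 0.0113). That call was lost with median-ratio scaling, at -0.65 (limma adjusted p = 0.072), without Callus II replicate 1, at -1.01 (limma adjusted p = 0.0598), and without Callus III replicate 1, at -0.89 (limma adjusted p = 0.0801). Leaf and Callus III overlapped, with a difference of -0.054 and an interval from -0.69 to 0.58 (limma adjusted p = 0.881).

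The chromosome 10 synthase was lower in Callus III, at -2.40 ± 0.24 against Callus II and -2.07 ± 0.24 against Callus I (SE; limma adjusted p = 0.000282 and 0.000286). The corresponding ratios of mean FPKM were 5.19 and 4.12. Leaf was higher than Callus III by 1.33 ± 0.24 (limma adjusted p = 0.00219) and lower than Callus II by -1.07 ± 0.24 (limma adjusted p = 0.00528). Against Callus I, Leaf was at -0.74 ± 0.24 (limma adjusted p = 0.0255). That call was lost when any one of those 4 libraries was left out, although the difference stayed between -0.81 and -0.67. Callus II minus Callus I was 0.33, from -0.24 to 0.89 (limma adjusted p = 0.267), and -0.0095 with median-ratio scaling.

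Set against each other, the chromosome 1 gene made up 30.6% and 19.2% of the FPKM of the 2 synthases in the Callus I libraries. Its share was 56.3% and 59.9% in Leaf and 58.3% and 60.9% in Callus II, and it reached 80.0% and 76.9% in the Callus III libraries. The predominant synthase transcript was therefore the chromosome 10 gene in Callus I and the chromosome 1 gene in the 6 other libraries. The sum of both was highest in Callus II, at 1421 and 1197 FPKM, against 390.5 to 613.5 FPKM elsewhere.

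The vacuolar invertase (Sobic.004G004800.v3.2, chromosome 4, 418239 to 423162) was highest in Callus I. Callus I had 70.1 and 38.3 FPKM, Leaf 8.92 and 10.2 FPKM, Callus II 1.98 and 2.46 FPKM, and Callus III 0.705 and 0.573 FPKM. No 2 groups overlapped, although the Callus I replicates differed by a factor of 1.83.

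Invertase was lower than in Callus I by -4.04 ± 0.27 in Callus II and by -5.01 ± 0.27 in Callus III (SE; limma adjusted p = 2.71e-05 and 9.57e-06), with ratios of mean FPKM of 24.5 and 84.9. Leaf was between, lower than Callus I by -2.33 ± 0.27 (limma adjusted p = 0.00022). It exceeded Callus II by 1.72 ± 0.27 and Callus III by 2.69 ± 0.27 (limma adjusted p = 0.00107 and 0.000141). Callus III lay under Callus II by -0.97 ± 0.27 (limma adjusted p = 0.0203), and by -1.65 with a pseudocount of 0.1 FPKM. That call was lost with median-ratio scaling, at -0.71 (limma adjusted p = 0.0723), and without any one library of Callus II or Callus III, at -1.08 to -0.86. It was also lost without either Leaf library. That leaves the difference at -0.97 and changes only the spread estimated over all groups.

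The ratio of the 2 synthase transcripts to this 1 invertase transcript was widest apart between the callus types. Other synthase or invertase genes were not looked at, so it does not give the balance of all routes of sucrose cleavage. In Callus III the invertase was under 1 FPKM, which makes the ratio there uncertain. The FPKM of both synthases together was 8.22 and 14.2 times that of the invertase in Callus I. It was 65.7 and 60.2 times in Leaf, 718 and 488 times in Callus II, and 554 and 952 times in Callus III. The synthase sum was 9.98 and 10.2 times the transporter sum in Callus I and 27.003 and 22.3 times in Callus II. In Callus III that ratio was 1.94 and 3.35, and in Leaf 3.64 and 3.71. Enzyme activities and sugars were not measured in the data used here.

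**Figure D3:**
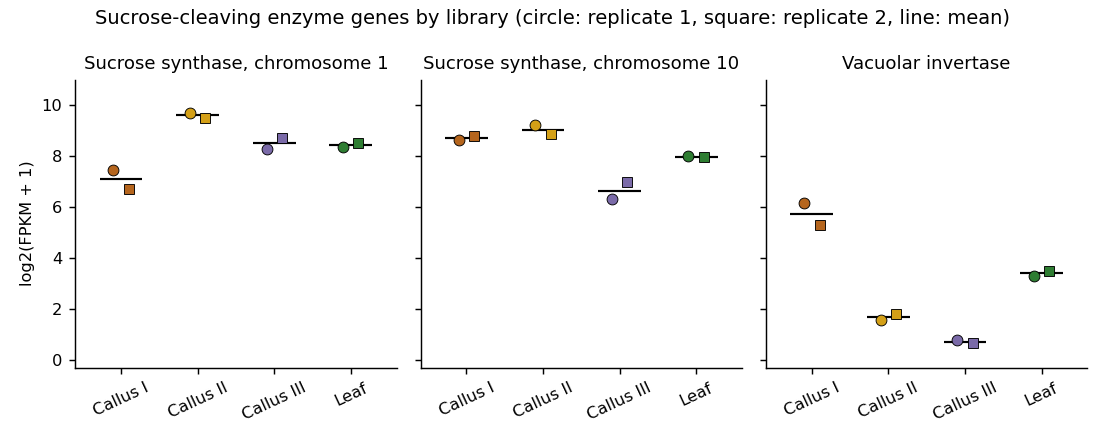
Level of the 2 sucrose synthase genes and the vacuolar invertase gene, as log2(FPKM + 1), in the 8 libraries (circles replicate 1, squares replicate 2, lines the mean of 2). The invertase is at 70.1 and 38.3 FPKM in Callus I and at or under 10.2 FPKM in the 6 other libraries, while both synthases are above 78 FPKM everywhere.

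Between Callus II and Callus I, 5 of the 8 tested members were called, where 64.5% of all tested genes were. SUT2 and the chromosome 1 synthase were higher in Callus II (39.1% of all tested genes were called higher), and SUT4, SUT5 and the invertase lower (25.4%). Between Callus III and Callus I, 6 members were called against 60.1% of all genes. SUT1 and the chromosome 1 synthase were higher in Callus III (26.9% of all), and SUT4, SUT6, the chromosome 10 synthase and the invertase lower (33.2%). Callus III against Callus II gave 6 calls, with 57.3% for all genes. SUT1 was the 1 member higher in Callus III (15.1% of all), and SUT2, SUT6, both synthases and the invertase were lower (42.3%). That last comparison had 4 members called with median-ratio scaling, 2 in each direction, where 22.7% of all tested genes were called higher and 23.3% lower.

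Leaf against Callus I gave 6 called members, where 70.8% of all tested genes were called. SUT1 and the chromosome 1 synthase were higher in Leaf (38.8% of all), and SUT2, SUT6, the chromosome 10 synthase and the invertase lower (32.1%). Against Callus II all 8 tested members were called, with 71.4% for all genes. SUT1, SUT4, SUT5 and the invertase were higher in Leaf (32.4% of all), and SUT2, SUT6 and both synthases lower (39.0%). Against Callus III 4 members were called, with 64.1% for all genes. SUT4, the chromosome 10 synthase and the invertase were higher in Leaf (38.5% of all), and SUT2 was lower (25.6%). With 8 tested members and shares this high among all genes, no count of called members is read as particular to these genes. The comparisons share libraries and are not independent of one another.

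**Figure D4:**
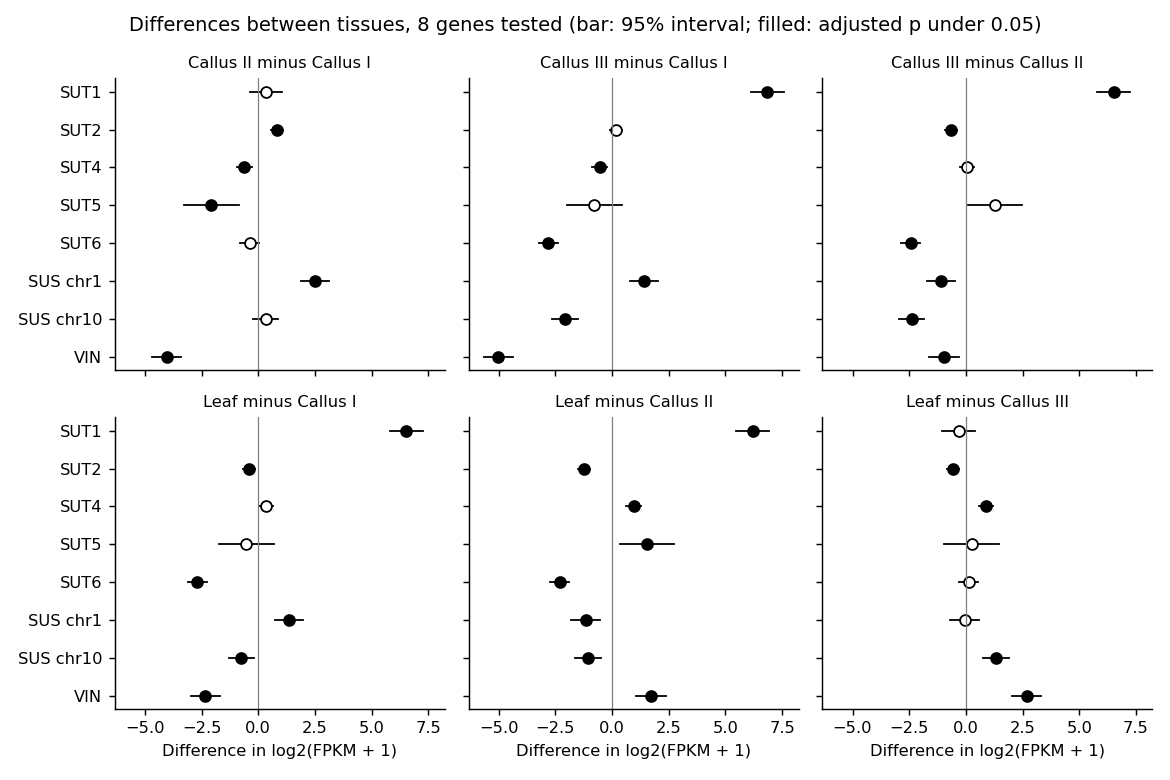
Difference in log2(FPKM + 1) for the 8 tested members in the 6 pairs of tissues, with 95% intervals from limma. Filled points have a Benjamini-Hochberg adjusted p under 0.05. SUT1 lies at or above 6.20 in the 4 comparisons of Callus III or Leaf with Callus I or II, and the invertase at -4.04 and -5.01 in Callus II and Callus III minus Callus I.

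The size of the change over the tissues set SUT1 and the invertase apart from the other members. The highest minus the lowest tissue mean on the log2(FPKM + 1) scale was 6.85 for SUT1 and 5.01 for the invertase. Of all tested genes, 98.2% and 94.1% had a smaller range. SUT6 (2.81), the chromosome 1 synthase (2.51), the chromosome 10 synthase (2.40) and SUT5 (2.08) had ranges larger than those of 61.6% to 75.4% of genes. Adding 1 narrows the ranges of the low transcripts SUT6 and SUT5. Their highest and lowest mean FPKM differed by ratios of 30.3 and 19.2. SUT2 (1.23) and SUT4 (0.95) varied less than most genes, with 33.1% and 20.7% of genes below them.

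**Figure D5:**
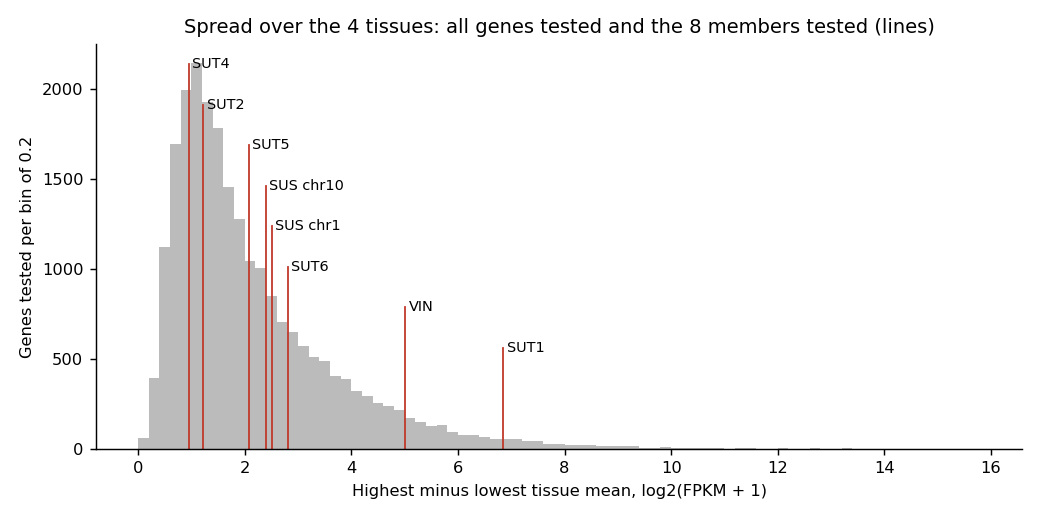
Highest minus lowest tissue mean of log2(FPKM + 1) for the 23166 genes tested (grey, number per bin of 0.2) and for the 8 tested members (red lines, whose heights carry no value). SUT4 and SUT2 lie near the peak of the distribution, at 0.95 and 1.23, and the invertase and SUT1 in its right tail, at 5.01 and 6.85.

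The genes nearest in profile to SUT1, the invertase and SUT5 lay farther off than those nearest to the other tested members. Likeness was measured as the Euclidean distance between centred log2(FPKM + 1) values over the 8 libraries, among 23158 tested genes that are not members. The gene nearest to SUT1 was Sobic.003G422000.v3.2, at a distance of 1.23, and 0 genes lay within 1. Callus III had 135.5 and 227.7 FPKM of it, Leaf 141.2 and 145.3 FPKM, Callus II 0.833 and 0.718 FPKM, and Callus I 0.039 and 0 FPKM. Nearest to the invertase was Sobic.009G068900.v3.2 at a distance of 0.938, the 1 gene within 1. Callus I had 24.6 and 29.2 FPKM of that gene, Leaf 6.68 and 5.82 FPKM, Callus II 1.07 and 1.08 FPKM, and Callus III 0 and 0.096 FPKM. SUT5 had its nearest gene, Sobic.002G045200.v3.2, at 1.03.

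The other members had closer company. Within a distance of 1 lay 47 genes for SUT6, 182 for the chromosome 1 synthase and 34 for the chromosome 10 synthase. Their nearest genes were Sobic.005G228250.v3.2 at 0.402, Sobic.010G279800.v3.2 at 0.382 and Sobic.004G066600.v3.2 at 0.52. SUT2 and SUT4 had 2731 and 1769 genes within 1, the nearest being Sobic.003G203100.v3.2 at 0.251 and Sobic.003G412600.v3.2 at 0.211. Both of these nearest genes are low transcripts. The first ran from 0.325 FPKM in Leaf to 2.39 FPKM in Callus II. The second ran from 0 and 0.034 FPKM in Callus II to 1.207 and 1.145 FPKM in Leaf. With 1 added, such low genes can lie near on this measure although their FPKM differ between tissues by larger ratios than those of SUT2 and SUT4. Members with a small range have many near genes on this measure by construction. A wide range, as in SUT1 and the invertase, or replicates far apart, as for SUT5 in Callus III, leaves few. The counts are therefore no measure of how rare a profile is.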

How the data were processed

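The authors deposited 1 table per library with a gene identifier, a locus and an FPKM value, per the file headers. Trimmomatic, TopHat2 2.0 and Cuffdiff are listed in the submitters' processing notes, without roles. For the genome build, settings, filters and use of strand, the sources used here give nothing. How reads shared between related genes were assigned is not given either, so levels of similar transporters may hold some of each other's reads. The 8 tables were joined by identifier, and 0 pairs of libraries were identical. Locus starts count from 0 (884 starts equalled one in an NCBIv3 gene table after 1 was added, 345 without), and 1 was added to those printed. That table of 32945 genes matched 0 identifiers and holds no descriptions. The 11 lists of other sucrose genes and 4 lists of tissue markers, which were defined by description, were therefore empty, and the tissues were not checked against markers. Genomic and protein sequences were not used here.

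Genes that reached 1 FPKM in 2 or more of the 8 libraries were fitted as log2(FPKM + 1), 1 mean for each group, with limma 3.58.1 under R 4.3.3. Tests were 2-sided, with a trend in the moderated variance and 2.83 prior degrees of freedom. P-values were adjusted by Benjamini-Hochberg over all 23166 genes within each of the 6 pairs of groups. The code of the fit was also run on simulated data in which few genes changed, unlike here, and no result rests on that run. Alternatives were another pseudocount, other filters, other scalings, no variance trend, fewer groups, a replicate block and leaving out each library. The members, lists and tests were chosen with earlier results of these data known. All 9 members are named, with, for each tested member, the 1 other gene nearest in profile.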

Additional observations from a re-analysis of the deposited data

How the results depend on the processing

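Several alternatives can change the p-value of a difference but not its size or direction. These are other filters, no variance trend, fewer groups, the replicate block and leaving out a library outside the pair. Across 48 differences of the 8 tested members and up to 16 alternatives each, 711 of 756 values kept their direction and their side of the threshold. That count includes the values whose direction was fixed in this way. In every alternative run on them, 27 differences kept both. Among these 27 were the 4 comparisons of SUT1 in Callus III or Leaf with Callus I or II (5.79 to 8.99), the same 4 of SUT6 and all of the invertase except Callus III against Callus II. Of the other values, 26 lost the call, 12 gained it and 7 changed sign. Those that changed sign were not called before or after the change. One was the chromosome 10 synthase in Callus II against Callus I with median-ratio scaling (-0.0095), and the others came from leaving out 1 library. Over those left-out libraries, SUT1 in Callus II against Callus I ran from -0.073 to 0.74 and SUT5 in Callus III against Callus I from -1.67 to 0.087. In Leaf against Callus III, SUT5 ran from -0.62 to 1.13, SUT6 from -0.061 to 0.30 and the chromosome 1 synthase from -0.26 to 0.16. The cause was not tested. No alternative moved the number of called members by more than 1.5 times in any comparison. A mean of at least 5 FPKM left SUT5 and SUT6 untested. The replicate block, which uses the numbers in the labels, gave 5, 6, 6, 6, 8 and 4 called members in the order of the report, as without it, and changed no member's call. Nothing in the labels ties equal numbers together, and the correlation of their deviations was -0.103 to 0.018 over 6 pairs of groups. The alternatives for pathway lists were not run, because the lists were empty. With 2 libraries per group and unknown depth, values under about 1 FPKM limit SUT1 in Callus I and II, SUT3, SUT5, SUT6, and the invertase in Callus III with the ratios that rest on it.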

Other observations

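Genes beside the transporters, which the files list without names, were in part distributed like their neighbour and in part differently. Just past SUT1, 480 bp from its end, lies Sobic.001G488800.v3.2, which was low and distributed the other way. Callus II had 4.11 and 3.99 FPKM of it, Callus I 2.64 and 1.88 FPKM, Callus III 0 and 0.269 FPKM, and Leaf 0 and 0.033 FPKM. Its difference was -2.16 ± 0.17 in Callus III against Callus II and -2.31 ± 0.17 in Leaf against Callus II (SE, n = 2 per group; limma adjusted p = 0.000101 and 2.08e-05). On the other side of SUT1, 20015 bp away, Sobic.001G488600.v3.2 had 12.7 and 14.3 FPKM in Callus III and 9.22 and 10.52 FPKM in Leaf, against 2.71 to 5.72 FPKM in the Callus I and II libraries.

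Beside SUT6, at a gap of 79 bp, Sobic.007G214400.v3.2 was highest in Callus I, at 19.7 and 11.2 FPKM, followed by 9.70 and 10.3 FPKM in Callus II. It had 2.07 and 5.38 FPKM in Callus III and 0 and 0.058 FPKM in Leaf. Like SUT6 it differed between Callus III and Callus I, at -1.85 ± 0.38 (SE; limma adjusted p = 0.00465). It was also lower in Leaf than in Callus III, by -2.11 ± 0.38 (limma adjusted p = 0.00227). Next to the chromosome 1 synthase, Sobic.001G344600.v3.2 was listed at 0 in all 6 callus libraries and at 44.8 and 48.3 FPKM in Leaf. These neighbours were picked for their place in the genome, and those named here were chosen after their values were seen.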
